A study of Mus musculus with 72 samples.

Results

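The genes of 2 imprinted domains on distal mouse chromosome 7 were followed here in chromatin-associated RNA: H19 and Igf2 of the H19-Igf2 domain, and Kcnq1ot1, Kcnq1, Cdkn1c and Phlda2 of the Kcnq1 domain. They were chosen by name, as 6 of the 22556 genes counted, for their place in these domains. No rule on measured values was used, but earlier results of these data were known at that choice. Total RNA and the Cast share, which is Cast/(Cast + Dom) over the fragments that carry a strain-specific base, were taken for each clone and day, together with the question of whether a gene is monoallelic and whether loss of SmcHD1 relaxes that state.

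The study followed female mouse embryonic stem cells (mESCs) toward neural progenitor cells (NPCs), WT or SmcHD1 KO, by ChrRNA-seq, the sequencing of RNA that stays with the chromatin pellet. All lines descend from an F1 129/Sv-CAST/EiJ line, so that each autosome is present as a Dom (129) and a Cast copy. A doxycycline-inducible promoter drives Xist on the Dom X in iXist-ChrX_Dom and on the Cast X in iXist-ChrX_Cast, and every differentiating culture, WT or KO, received doxycycline throughout. The KO was represented by clone A3 in iXist-ChrX_Dom and by clones D5 and G6 in iXist-ChrX_Cast, each a single clone made by Cas9 mutagenesis, and WT by the parental line, itself a clone.

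Replicates of days 2, 3, 5 and 7, called early, numbered 8 for iXist-ChrX_Dom WT, 8 for A3, 11 for iXist-ChrX_Cast WT and 8 each for D5 and G6. Days 15, 21, 35 and, in iXist-ChrX_Dom, 52, called late, gave 1 replicate per clone and day, which is 4 for iXist-ChrX_Dom WT, 4 for A3 and 3 each for iXist-ChrX_Cast WT, D5 and G6. Undifferentiated cells without doxycycline (ES) were sampled from the KO clones alone, with 2 replicates of A3, 2 of D5 and 1 of G6. There were 65 replicates from 72 libraries of 9344054 to 31216487 fragments, of which 44.8% to 50.3% were assigned to an allele. Per the study's figure legends, replicates of the early days came from repeated time courses and the late days from individual samples. Days of one replicate may therefore share a culture, and the p-values treat them as separate samples. Smchd1 RNA remained in the KO clones. It lay at 416 to 616 fragments per 1000000 (RPM) in early KO replicates and at 516 to 709 RPM in early WT across both lines, and its level therefore cannot check the labels. The study itself reported that SmcHD1 protein was absent from the KO clones by western blot. It also reported no SmcHD1 signal by immunofluorescence in A3 and D5 at day 7. Neither was analysed here.

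Cast share along distal chromosome 6, past 140 Mb, set some cultures apart. It was 0.459 to 0.485 in early A3, G6 and iXist-ChrX_Cast WT, but 0.362 to 0.505 in early iXist-ChrX_Dom WT and 0.621 to 0.640 in early D5. In late iXist-ChrX_Dom WT it was 0.488 at day 15 and 0.375 to 0.413 at days 21, 35 and 52. Over the 196 other genes of chromosome 7 past 130 Mb, by contrast, it lay between 0.453 and 0.499 in all 65 replicates, with a median of 0.468. Distal chromosome 7, where the 6 genes lie, was thus read from both alleles in every culture.

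Imprinted genes are transcribed mainly from the copy inherited from a given parent, and the domains of distal chromosome 7 are ruled by control regions whose DNA methylation differs between the parental copies. In the H19-Igf2 domain a control region upstream of H19 binds CTCF on the maternal copy, which then transcribes the non-coding RNA H19, whereas the paternal copy transcribes Igf2, a fetal growth factor. In the Kcnq1 domain the paternal copy transcribes the long antisense RNA Kcnq1ot1, and Cdkn1c, an inhibitor of cyclin-dependent kinases, Phlda2, which restrains placental growth, and the potassium channel gene Kcnq1 are transcribed from the maternal copy, Kcnq1 losing its imprint in later development. SmcHD1 is a chromosomal protein of the inactive X that is also known to act at some imprinted clusters. The sources used here do not state which parent was CAST/EiJ, so an allele can be named by strain only, and effects of strain and of parental origin cannot be told apart.

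In mm10 the H19 gene spans chr7:142575531-142578146 on the minus strand and Igf2 spans chr7:142650767-142661035, also on the minus strand. Kcnq1ot1 spans chr7:143213110-143296547 on the minus strand, inside and antisense to Kcnq1, which spans chr7:143107253-143427042 on the plus strand. Cdkn1c (chr7:143458338-143461050) and Phlda2 (chr7:143501547-143502524) follow on the minus strand. Fragments were counted over whole transcripts, introns included, and on the annotated strand.

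H19 and Igf2 each host a microRNA, and the mature arms are shown because counts over the host transcripts include the precursors of these RNAs. The 4 arms lie inside their hosts in GRCm38.p6 (RefSeq), and capitals mark the seed, bases 2 to 8. No 2 of the 4 arms share a seed.
mmu-miR-675-5p (H19): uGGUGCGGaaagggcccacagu
mmu-miR-675-3p (H19): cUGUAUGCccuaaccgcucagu
mmu-miR-483-5p (Igf2): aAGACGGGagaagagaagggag
mmu-miR-483-3p (Igf2): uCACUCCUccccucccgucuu

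Promoter windows, 250 bases before to 50 after a transcription start, were found in RefSeq (GRCm38.p6) for Igf2, Kcnq1ot1 and Phlda2. They are printed for the antisense RNA that dominates the Kcnq1 domain, for its neighbour with the fewest fragments and for the most CpG-dense of the 4 Igf2 windows, since methylation of CpG sites is what marks the parental copies. Capitals mark the letters CG, which read the same on both strands.
Kcnq1ot1 (chr7:143296498-143296797, minus strand): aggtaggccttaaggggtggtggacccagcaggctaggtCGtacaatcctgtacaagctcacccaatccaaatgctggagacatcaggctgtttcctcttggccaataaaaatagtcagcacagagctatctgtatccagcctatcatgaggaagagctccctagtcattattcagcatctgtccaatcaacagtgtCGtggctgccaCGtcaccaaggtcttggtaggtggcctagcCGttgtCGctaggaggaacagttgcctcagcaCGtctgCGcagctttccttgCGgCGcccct
Phlda2 (chr7:143502475-143502774, minus strand): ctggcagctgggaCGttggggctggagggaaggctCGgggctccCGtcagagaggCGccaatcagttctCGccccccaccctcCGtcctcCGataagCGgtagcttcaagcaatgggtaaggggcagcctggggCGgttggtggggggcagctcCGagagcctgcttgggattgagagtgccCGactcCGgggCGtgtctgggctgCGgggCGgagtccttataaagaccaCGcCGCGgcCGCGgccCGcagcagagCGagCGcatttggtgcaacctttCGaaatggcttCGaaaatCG
Igf2, window 3 (chr7:142658755-142659054, minus strand): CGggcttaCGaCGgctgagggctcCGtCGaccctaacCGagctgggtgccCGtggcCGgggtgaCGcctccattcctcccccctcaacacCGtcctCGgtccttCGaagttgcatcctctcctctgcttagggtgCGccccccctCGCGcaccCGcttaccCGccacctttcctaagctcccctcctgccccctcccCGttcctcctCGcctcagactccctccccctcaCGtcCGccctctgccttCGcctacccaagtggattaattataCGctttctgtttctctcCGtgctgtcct
The Kcnq1ot1 window holds 9 CG, and 45.8% of all 32851 mouse windows of this length hold at least as many. The Phlda2 window holds 26, matched or passed by 16.9% of windows, and the Igf2 window 24, matched or passed by 20%. The other Igf2 windows hold 2, 14 and 7. A count of letters says nothing of methylation, which was not measured here.

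The 6 genes differed widely in abundance. Per kilobase of gene, Kcnq1ot1 was highest, with a median over the 65 replicates of 15.5 RPM per kilobase (RPKM) and a range of 9.48 to 23.3. H19 followed at a median of 3.78 RPKM but ranged from 0.313 to 100.3, so its order against Kcnq1ot1 depended on the day. Phlda2 (0.214), Cdkn1c (0.159), Igf2 (0.0856) and Kcnq1 (0.0465 RPKM) had medians far below these, and the ranges of these 4 genes overlapped. Because the level of a bulk culture is an average, fewer expressing cells and less RNA per cell cannot be told apart.

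Kcnq1ot1 was the most deeply covered member, and both alleles were transcribed in every culture. Its level was 1066 to 1269 RPM in ES, 791 to 1946 RPM (median 1297) in early and 879 to 1802 RPM (median 1441) in late replicates. The Cast share lay between 0.443 and 0.487 in all 65 replicates, and over all 1133888 allele-assigned fragments it was 0.464 (exact 95% binomial interval 0.463 to 0.465). Intervals of this kind, here and below, cover counting error only. The other genes of distal chromosome 7 had 0.453 to 0.499 in the same replicates. The RNA known as the paternal transcript of its domain was thus read at similar depth from both strains in every replicate of either line and genotype.

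Kcnq1, the host gene on the opposite strand, was also read from both alleles. It gave 130 to 1728 fragments per replicate, at 4.67 to 56.7 RPM. Its Cast share over all replicates was 0.404 (interval 0.396 to 0.411), below that of Kcnq1ot1, and it was under 0.5 in 63 of 65 replicates. The summed early share was 0.395 and the summed late share 0.422. With 70 to 935 allele-assigned fragments behind a replicate (median 203), single values ranged from 0.303 to 0.554. Kcnq1 fragments were 0.353% to 4.79% of the Kcnq1ot1 fragments of the same replicate (median 1.04%). For the antisense pair Tsix and Xist in induced cells, where Xist is driven to a high level, Tsix was as low as 0.136% of Xist, in A3 at day 15. That bounds the fragments counted on the wrong strand in that library, where the Kcnq1 percentage was 0.353%. Elsewhere the bound was looser, up to 5.27% in the first day 2 replicate of iXist-ChrX_Dom WT, above its Kcnq1 percentage of 0.959%. The part of wrong-strand Kcnq1ot1 fragments in the Kcnq1 counts was not tested.

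H19 was biallelic by the same measure while its level moved strongly with time. The 5 ES replicates lay between 4.82 and 12.4 RPM, the 43 early replicates between 0.820 and 262 RPM with a median of 3.52, and the 17 late replicates between 4.00 and 101 RPM with a median of 40.3. The summed Cast share was 0.463 in ES (interval 0.401 to 0.526), 0.479 in early (0.469 to 0.488) and 0.559 in late replicates (0.547 to 0.571). Most of the 11203 early fragments came from day 7, 672 in iXist-ChrX_Dom and 9073 in iXist-ChrX_Cast, with a share of 0.487 in each. On days 2, 3 and 5 the summed share was 0.446, 0.450 and 0.531 in iXist-ChrX_Dom. In iXist-ChrX_Cast it was 0.408, 0.418 and 0.403 (day 5 interval 0.369 to 0.438). Late replicates were above 0.5 in 16 of 17 cases, the exception being A3 at day 52 with 0.314 from 51 allele-assigned fragments, the lowest coverage among them.

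Igf2 stayed scarce, with at most 233 fragments in a replicate. It was at 0.0556 to 0.535 RPM in ES, 0.0440 to 5.58 RPM (median 0.578) in early and 0.528 to 5.83 RPM (median 2.06) in late replicates. Few of these fragments carry an allele, so shares are given as sums: 81 of 172 early allele-assigned fragments were Cast, a share of 0.471 (interval 0.395 to 0.548), and 25 of 131 late ones, a share of 0.191 (interval 0.127 to 0.269). The late share was 0.300 in iXist-ChrX_Dom (interval 0.179 to 0.446) and 0.123 in iXist-ChrX_Cast (0.0608 to 0.215). In late iXist-ChrX_Dom 13 of 34 fragments were Cast in WT (0.382, interval 0.222 to 0.564) and 2 of 16 in A3 (0.125, interval 0.0155 to 0.383). In late iXist-ChrX_Cast the counts were 3 of 30 in WT (0.100, interval 0.0211 to 0.265), 5 of 20 in D5 (interval 0.0866 to 0.491) and 2 of 31 in G6 (0.0645, interval 0.00791 to 0.214). The clones of a line thus overlapped in their intervals, and KO lay below WT in A3 and G6 and above it in D5. By day, 4 of 11 fragments of iXist-ChrX_Cast were Cast at day 15, 5 of 30 at day 21 and 1 of 40 at day 35, with 22 of those 40 from G6. Of the 17 late replicates, 14 were under 0.5 and 3 above it. Fragments of a replicate share a culture and the gene failed the allelic coverage minimum in every comparison, so these shares are a description with no test. H19 in the same late replicates leaned the other way, to the Cast allele.

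Cdkn1c and Phlda2 were near the limit of detection. Cdkn1c gave 0 to 82 fragments per replicate, with more than 3 fragments in 58 of 65, and Phlda2 gave 0 to 50 fragments, with more than 3 in 37 of 65. A count of 0 allows up to 3 fragments, which is 0.0533 to 0.321 RPM depending on depth. Over all replicates 61 of 128 allele-assigned Cdkn1c fragments were Cast, a share of 0.477 (interval 0.388 to 0.567), and 51 of 125 for Phlda2, a share of 0.408 (interval 0.321 to 0.499). Single replicates held at most 13 allele-assigned fragments of either gene, and monoallelic transcription of part of the cultures was not detectable at this depth.

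Monoallelic state was then called for every autosomal gene from the fragments summed over a clone and period, of which there are 13. A gene counted where it had at least 10 allele-assigned fragments in over 80% of the replicates of the sum, and was called monoallelic at a Cast share of at most 0.1 or at least 0.9. Kcnq1ot1, Kcnq1 and H19 met the coverage minimum in all 13 sums, and 0 of the 3 was monoallelic in any of them. The background was low too: 0.328% to 1.81% of genes were monoallelic in a given sum, and 2.52% of 13871 genes were so in at least 1. Snrpn, a paternally expressed gene of another domain of chromosome 7, was chosen after its values were seen. Its Cast share was skewed, from 0.0187 to 0.315 over the 13 sums. It lay above the limit of 0.1 in late D5, A3, G6 and iXist-ChrX_Dom WT (0.119, 0.164, 0.310 and 0.315). A single gene chosen in this way does not show how well the call finds imprinted genes.

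**Figure D1:**
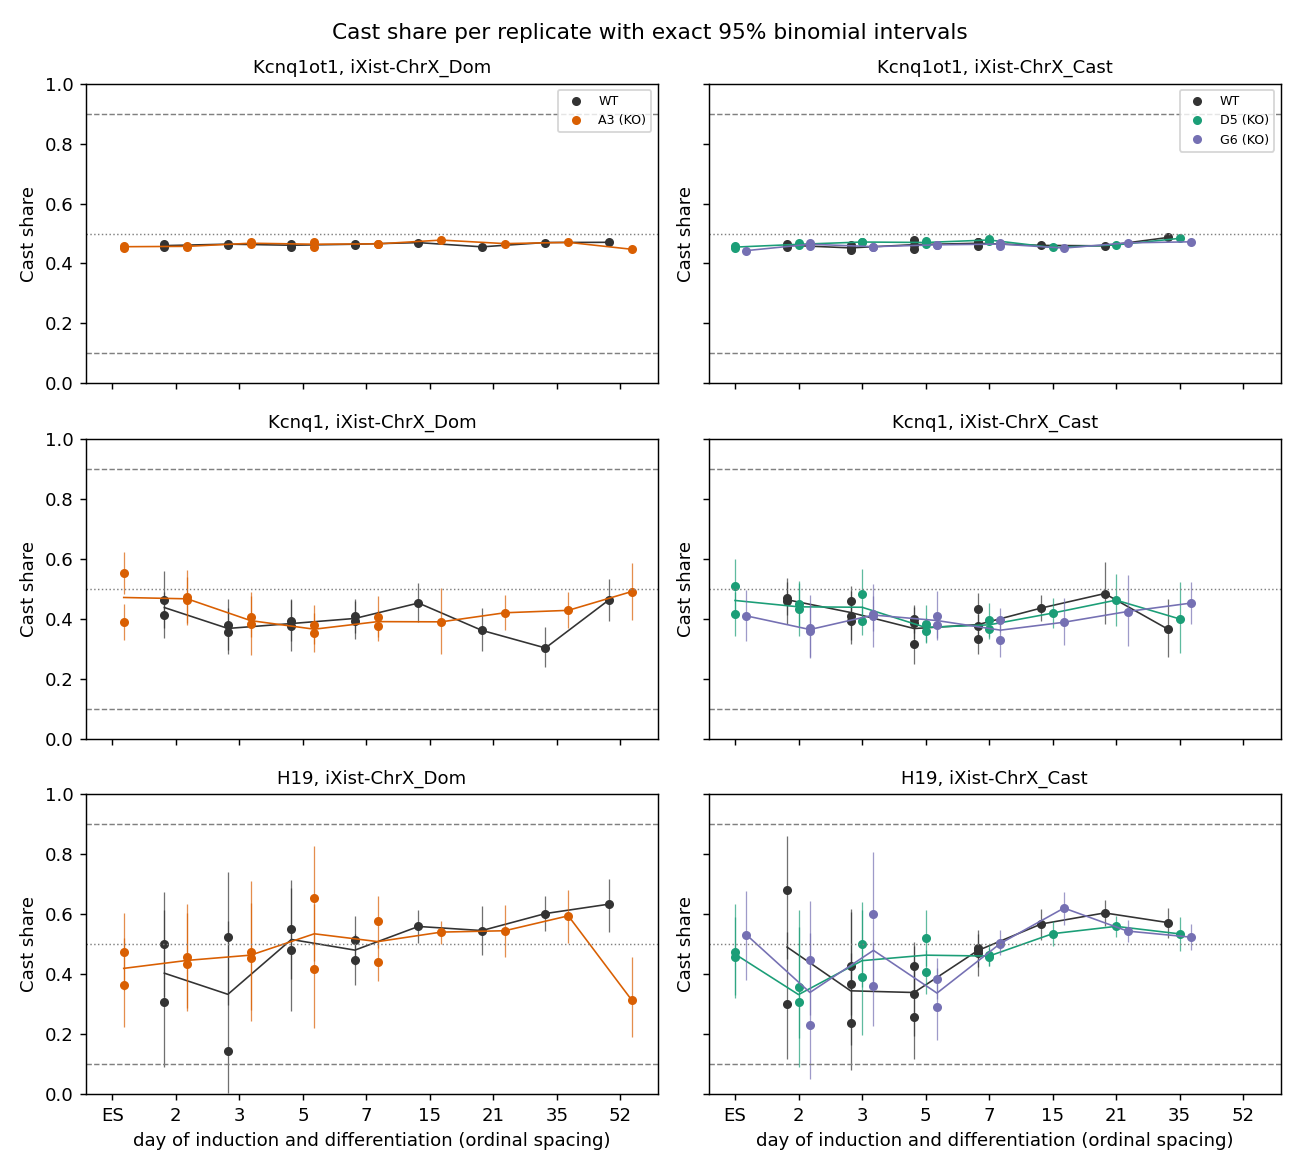
Cast share (vertical axis, 0 to 1) of Kcnq1ot1, Kcnq1 and H19 for each replicate by day, with ES at the left, in iXist-ChrX_Dom (left column) and iXist-ChrX_Cast (right column). Points are replicates, bars are exact 95% binomial intervals, thin lines join the means of a clone, dotted lines mark 0.5 and dashed lines the monoallelic limits of 0.1 and 0.9. Kcnq1ot1 stays between 0.443 and 0.487, Kcnq1 mostly under 0.5, and H19 above 0.5 in 16 of 17 late replicates.

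The members were also set beside their neighbours along the chromosome. The plot of Cast share by distance from the H19 start holds every gene of the 2 neighbourhoods with at least 100 allele-assigned fragments. Nap1l4, beyond the Kcnq1 domain, had an early WT share of 0.457 and Cars, next to it, one of 0.491. Cd81, on the side of Kcnq1, had 0.387, close to the early WT share of Kcnq1 at 0.402. The lowest share in the plot was that of Tnfrsf22, with 0.144 in late WT and 0.171 in late KO, and the highest that of Tnfrsf26, with 0.720 in early WT and 0.699 in early KO. Both code for receptors of the tumour necrosis factor family. None of the listed genes of either neighbourhood was monoallelic in any of the 13 sums.

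**Figure D2:**
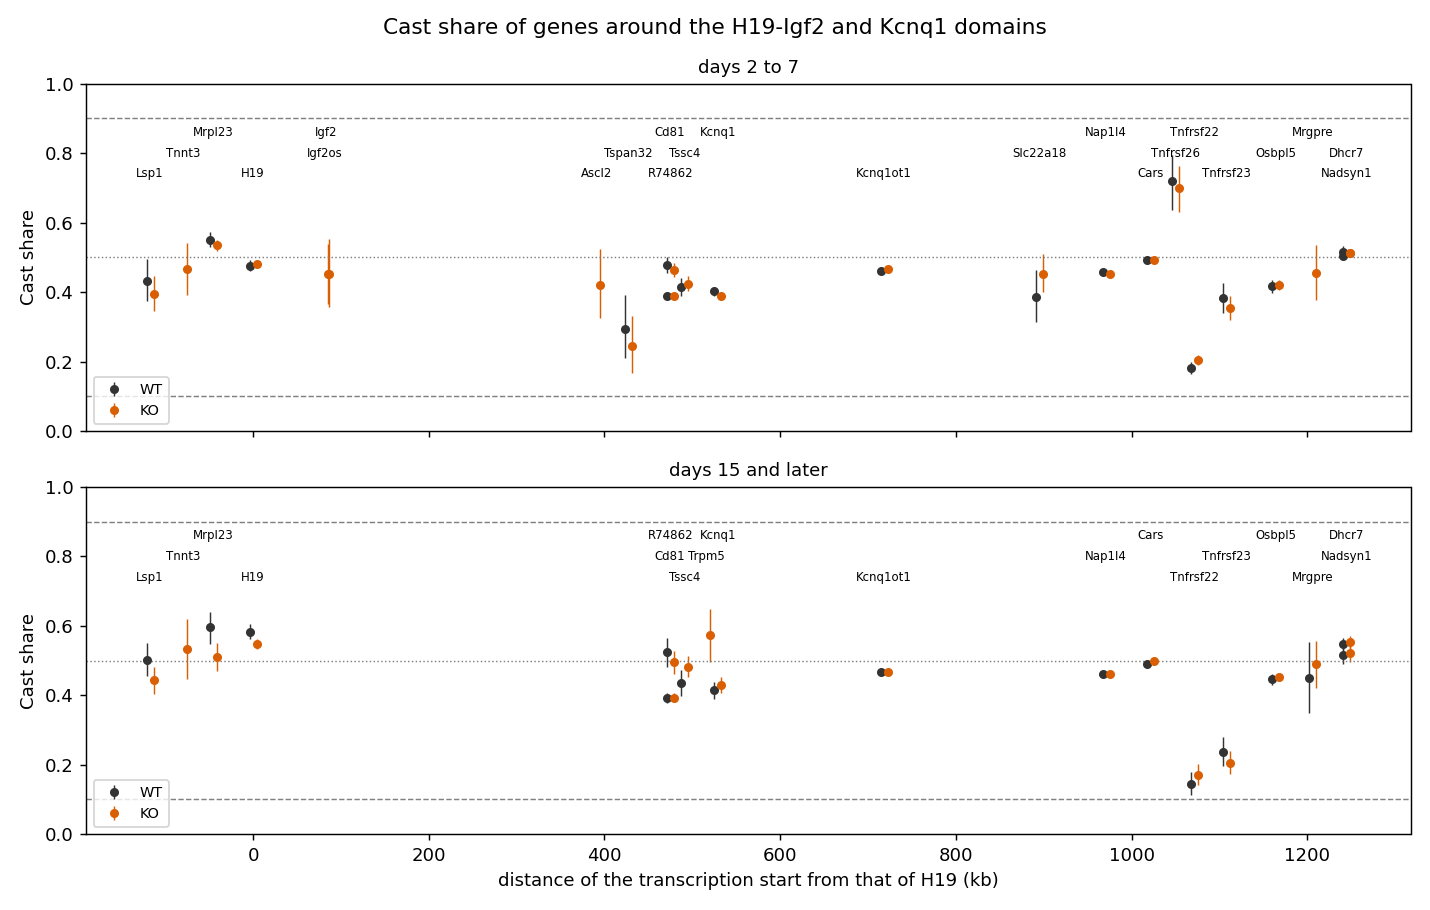
Cast share (vertical axis) of genes with at least 100 allele-assigned fragments against the distance of their start from the H19 start in kb (horizontal axis), in early (top) and late (bottom) replicates summed over both lines, for WT and KO. Bars are exact 95% binomial intervals, the dotted line is 0.5 and dashed lines are 0.1 and 0.9. WT and KO points of Kcnq1ot1 lie on each other at 0.461 to 0.466, and no gene crosses a dashed line.

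The main question was whether KO cells differed from WT. Total RNA was compared with edgeR's quasi-likelihood test on all genes, with day as a factor, and the Cast share with limma on all genes that met the coverage minimum, each with Benjamini-Hochberg adjustment over all genes and a threshold of 0.05. None of the members passed in any of the 4 comparisons of total RNA or the 4 of Cast share, nor with D5 or G6 alone against WT. With the replicate number as a block, 1 member passed, Kcnq1 in early iXist-ChrX_Cast. In early iXist-ChrX_Dom 5 members were tested against a background of 0.803% of genes called in total RNA, and in early iXist-ChrX_Cast 6 were tested against 0.381%. In the late comparisons the background was 0% as well, with 0 of 15229 genes called in iXist-ChrX_Dom and 0 of 14963 in iXist-ChrX_Cast by edgeR, where 1622 and 1898 genes had an unadjusted p under 0.05 and DESeq2 called 189 and 426. For the Cast share the background was 0.18% and 0.0165% in the early comparisons and 0% in both late ones, with 854 genes at an unadjusted p under 0.05 in each and 10 called by edgeR on allelic counts in late iXist-ChrX_Dom. The late comparisons rest on 1 replicate per clone and day, so days stand in for replicates.

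The Cast share of Kcnq1ot1 hardly differed between the genotypes. In early iXist-ChrX_Dom it ran from 0.454 to 0.466 with a median of 0.464 in WT and from 0.456 to 0.473 with a median of 0.465 in A3, and KO minus WT was 0.0013 (95% interval -0.0097 to 0.012, limma adjusted p = 0.966). In early iXist-ChrX_Cast it ran from 0.444 to 0.479 in WT and from 0.456 to 0.483 in D5 and G6, a difference of 0.0058 (interval -0.0028 to 0.014, limma adjusted p = 0.728). Groups overlapped in both lines. The late differences were -0.00090 in iXist-ChrX_Dom (interval -0.036 to 0.034) and -0.0034 in iXist-ChrX_Cast (interval -0.031 to 0.024), so that any shift in the Kcnq1ot1 share beyond 0.036 lies outside all 4 intervals.

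H19 shares were less precise, since early replicates often held few allele-assigned fragments (median 35). KO minus WT was 0.055 in early iXist-ChrX_Dom (interval -0.059 to 0.17) and 0.016 in early iXist-ChrX_Cast (interval -0.068 to 0.10). In late iXist-ChrX_Dom the 4 WT replicates lay at 0.560, 0.546, 0.603 and 0.634 (days 15, 21, 35 and 52) and A3 at 0.541, 0.545, 0.595 and 0.314, a difference of -0.087 (interval -0.25 to 0.076, limma adjusted p = 0.836). Without A3 at day 52 the difference was -0.0090 (limma adjusted p = 0.979). In late iXist-ChrX_Cast WT lay at 0.568, 0.605 and 0.573 and the KO clones between 0.524 and 0.621, a difference of -0.028 (interval -0.082 to 0.026, limma adjusted p = 0.804). The groups overlapped and none of these differences passed the threshold, though A3 lay below WT on all 4 late days. Summed over the late days the share was 0.581 in WT (interval 0.548 to 0.614) and 0.537 in A3 (0.505 to 0.568) of iXist-ChrX_Dom, and 0.585 in WT (0.557 to 0.612), 0.547 in D5 (0.523 to 0.571) and 0.553 in G6 (0.528 to 0.578) of iXist-ChrX_Cast. All 3 KO clones thus lay below the WT of their line in the summed late share, with overlapping intervals. Over both lines it was 0.583 in WT (0.562 to 0.604) and 0.547 in KO (0.532 to 0.562), a pair of sums that gives deeper replicates more weight and has no error between cultures.

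The Kcnq1 share differed between KO and WT by 0.0064 (interval -0.017 to 0.030) and 0.037 (interval -0.048 to 0.12) in early and late iXist-ChrX_Dom, and by -0.0100 (interval -0.040 to 0.020) and -0.0040 (interval -0.062 to 0.054) in early and late iXist-ChrX_Cast. Igf2, Cdkn1c and Phlda2 did not meet the coverage minimum in any comparison and gave no test of the share.

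In total RNA the largest early difference among the members was that of Kcnq1 in iXist-ChrX_Cast. The 11 WT replicates ran from 10.8 to 56.7 RPM with a median of 23.6 and the 16 KO replicates from 7.16 to 32.4 RPM with a median of 17.3. In log2 terms KO lay at -0.64 relative to WT (SE 0.23, interval -1.12 to -0.16, edgeR adjusted p = 0.265), and the groups overlapped. With the replicate block the value was -0.87 (edgeR adjusted p = 0.0051). Replicate numbers paired the samples in part. Over all genes, same-numbered replicates correlated at 0.51 and 0.55 on day 2 but at -0.21 to 0.076 on days 3 to 7. By RPM, Kcnq1 itself was higher in replicate 1 than in replicate 2 on every early day of D5 and G6. In WT it was so on days 2, 3 and 7 but not on day 5. The main fit takes no account of this. In early iXist-ChrX_Dom the same gene differed by 0.04 (SE 0.21). The difference of these effects between lines was -0.69 (interval -1.42 to 0.04, edgeR adjusted p = 0.587).

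Igf2 in late iXist-ChrX_Cast lay at 1.79, 5.83 and 5.83 RPM in WT (days 15, 21 and 35), at 2.06, 2.62 and 3.05 RPM in D5 and at 1.64, 2.21 and 3.55 RPM in G6. The G6 value at day 35 sums R1 and R2 libraries of 5.54 and 1.49 RPM. WT was above both clones at days 21 and 35 but not at day 15. The log2 fold change was -0.65 (SE 0.28, interval -1.30 to 0.01, edgeR adjusted p = 0.400). In late iXist-ChrX_Dom Igf2 gave -0.20 (SE 0.70), where A3 was above WT on 3 of 4 days and below it at day 52.

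The remaining members gave small or imprecise differences in total RNA. For H19 the log2 fold changes were 0.30 and -0.35 in early and late iXist-ChrX_Dom and 0.05 and 0.15 in early and late iXist-ChrX_Cast, with SEs from 0.22 to 0.43. For Kcnq1ot1 they were 0.15, 0.08, 0.00 and 0.09 in the same order, with SEs from 0.10 to 0.21. Cdkn1c had -0.29, 1.15, 0.52 and 0.79, the late values with SEs of 0.73 and 0.69, and Phlda2 was tested in early iXist-ChrX_Cast alone, at 0.34 (SE 0.34).

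**Figure D3:**
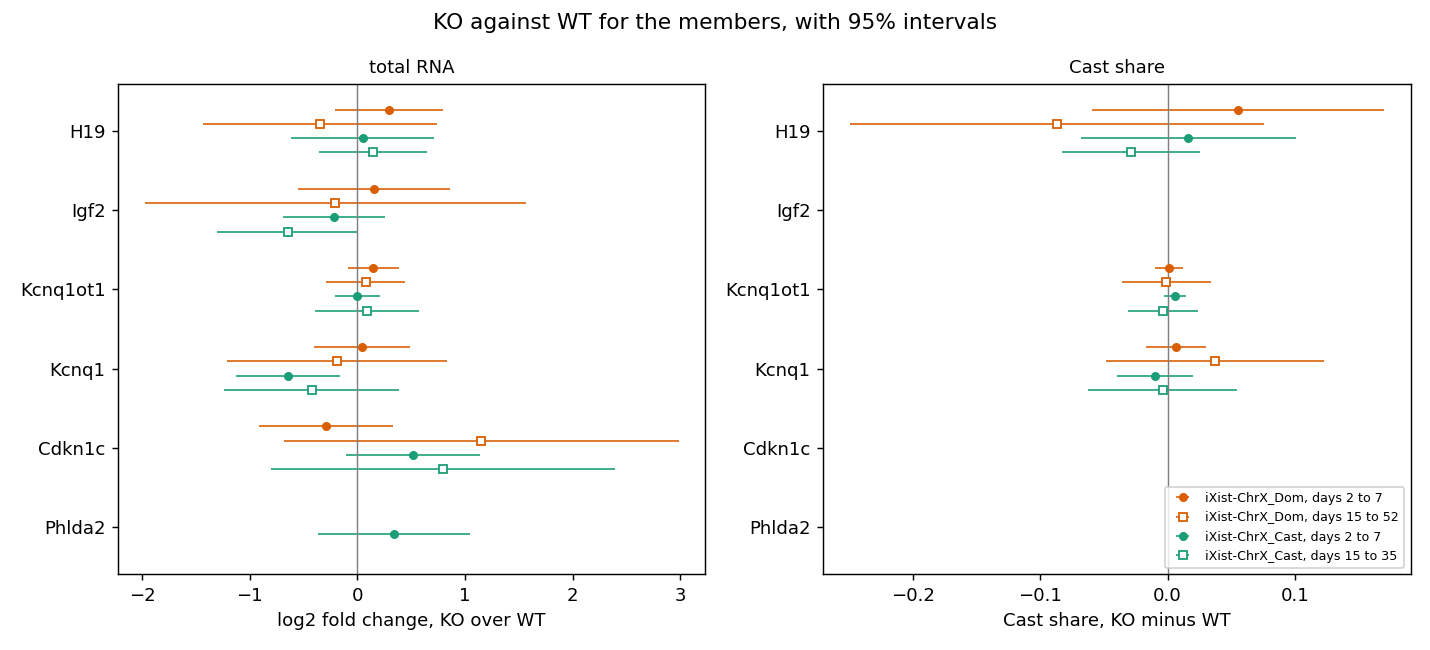
KO against WT for the 6 genes in 4 comparisons, as the log2 fold change of total RNA (left) and as the difference in Cast share (right). Points are estimates, filled circles for early and open squares for late days, bars are 95% intervals and the vertical line marks no difference. Kcnq1 and Igf2 in iXist-ChrX_Cast lie lowest in total RNA at -0.64 and -0.65, and the Kcnq1ot1 shares cluster at 0.

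Other genes with a stake in these domains were taken from lists chosen with earlier results of these data known. Of 17 genes that maintain imprints, such as Ctcf, Zfp57, Trim28 and Dnmt1, 17 were tested in each comparison of total RNA and 0 passed by edgeR between KO and WT in any of the 4. Of 17 partners in insulin-like growth factor signalling and the cell cycle, 1 passed, in early iXist-ChrX_Dom, where the background was 0.803%: Cdkn1b, which codes for an inhibitor of cyclin-dependent kinases related to Cdkn1c, was lower in early A3 at 15.8 ± 2.89 RPM than in WT at 24.9 ± 4.19 RPM (SD, n = 8 each), a log2 fold change of -0.62 (SE 0.11, edgeR adjusted p = 0.022). Over 16 single omissions Cdkn1b stayed between -0.67 and -0.55, and the call was lost in 4 of them (edgeR adjusted p from 0.050 to 0.059), which left out the second day 2, first day 3 or first day 5 replicate of A3 or the second day 5 replicate of WT, while the number of all genes called ran from 9 to 251. In late iXist-ChrX_Dom it gave -0.85 (edgeR adjusted p = 0.462), and in iXist-ChrX_Cast it had the other sign, at 0.45 early and 0.66 late (edgeR adjusted p = 0.350 and 0.331). Cdkn1b lies on chromosome 6, ahead of the 140 Mb mark used above, and where the difference between the cultures begins was not measured. The early Cast share of Cdkn1b in iXist-ChrX_Dom was 0.498 ± 0.041 in A3 and 0.594 ± 0.077 in WT (SD, n = 8 each, limma adjusted p = 0.245). The part of these allelic differences in its level was not tested. Among 11 neighbours of the H19-Igf2 domain and 14 of the Kcnq1 domain, 6 and 13 were tested in that comparison and 0 passed, with medians of 0.33 and 0.02 on the log2 scale against 0.01 over all genes tested.

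Time was the larger axis. Late replicates were compared with early ones within each line, with clone as a covariate, and since H19 was already higher at day 7 a comparison of day 7 with days 2, 3 and 5 was added after the values were seen. The day 7 split was chosen on the values of H19, with those of the other members known. For all members that comparison is therefore a description and has no test. Many genes change between these stages, 63.9% of those tested in iXist-ChrX_Dom and 67.5% in iXist-ChrX_Cast between early and late, and 39.4% and 53.5% at day 7 against the earlier days. A call in one of the members is to be read against these shares.

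H19 was higher at day 7 in both lines, and in iXist-ChrX_Cast its median had already risen by day 5. Medians on days 2, 3, 5 and 7 were 2.76, 2.14, 9.89 and 59.2 RPM there. In iXist-ChrX_Dom they were 3.40, 2.23, 2.59 and 16.8 RPM. In iXist-ChrX_Dom days 2, 3 and 5 lay between 0.820 and 4.13 RPM (n = 12) and the 4 day 7 replicates at 14.3 and 19.2 RPM in WT and 26.5 and 12.1 RPM in A3. The log2 difference was 2.84 (SE 0.26). In iXist-ChrX_Cast days 2, 3 and 5 lay between 1.71 and 17.6 RPM (n = 20) and the 7 day 7 replicates at 24.5, 262 and 30.5 RPM in WT, 59.2 and 109 RPM in D5 and 202 and 58.8 RPM in G6, a log2 difference of 4.46 (SE 0.46). The groups did not overlap in either line. Some replicates sum an R1 and an R2 library, and at day 7 these differed widely. H19 was 43.1 and 346 RPM in R1 and R2 of the first G6 replicate, and 26.7 and 87.5 RPM in those of the first D5 replicate. The estimates without any single day 7 replicate ran from 2.65 to 3.00 and from 3.93 to 4.65.

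The later course of H19 differed by line in its values. In iXist-ChrX_Dom late replicates ran from 4.00 to 63.2 RPM with a median of 14.1, a log2 change over early ones of 1.99 (SE 0.56, edgeR adjusted p = 0.0037) that fell to 1.27 (adjusted p = 0.069) without day 15, where A3 lay at 63.2 RPM. In iXist-ChrX_Cast they ran from 25.01 to 101 RPM with a median of 44.8, a log2 change of 1.08 (SE 0.78, edgeR adjusted p = 0.219). Over omissions of single days it ran from 0.69 to 3.73. The value of 3.73 left out day 7, the early day at which H19 was seen to be high, and is given with no test. Against day 7 alone the late values differed by 0.50 and -0.74 on the log2 scale in the 2 lines. The difference between lines in the change from early to late days, over days 15 to 35, was -1.18 (interval -3.49 to 1.14, edgeR adjusted p = 0.693).

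Igf2 was higher at day 7 as well, at a far lower level, but had already risen by day 5. Medians on days 2, 3, 5 and 7 were 0.227, 0.267, 1.05 and 1.69 RPM in iXist-ChrX_Dom. In iXist-ChrX_Cast they were 0.179, 0.277, 1.68 and 3.23 RPM. In iXist-ChrX_Cast days 2, 3 and 5 lay between 0.0440 and 2.71 RPM and day 7 between 2.12 and 5.58 RPM. The log2 difference was 2.26 (SE 0.51), with some overlap of the groups. In iXist-ChrX_Dom the difference was 1.66 (SE 0.55). It was 1.61 without the first day 7 replicate of A3, and 1.36 and 1.65 without either day 7 replicate of WT. Early to late, Igf2 rose by 1.33 (SE 0.50, edgeR adjusted p = 0.024) and 1.38 (SE 0.54, edgeR adjusted p = 0.025) on the log2 scale in the 2 lines. In iXist-ChrX_Dom that call was lost without day 2, 3, 35 or 52 (1.03 to 1.25, adjusted p from 0.064 to 0.093), and in iXist-ChrX_Cast without day 2, 3, 21 or 35 (1.02 to 1.29, adjusted p from 0.060 to 0.140).

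**Figure D4:**
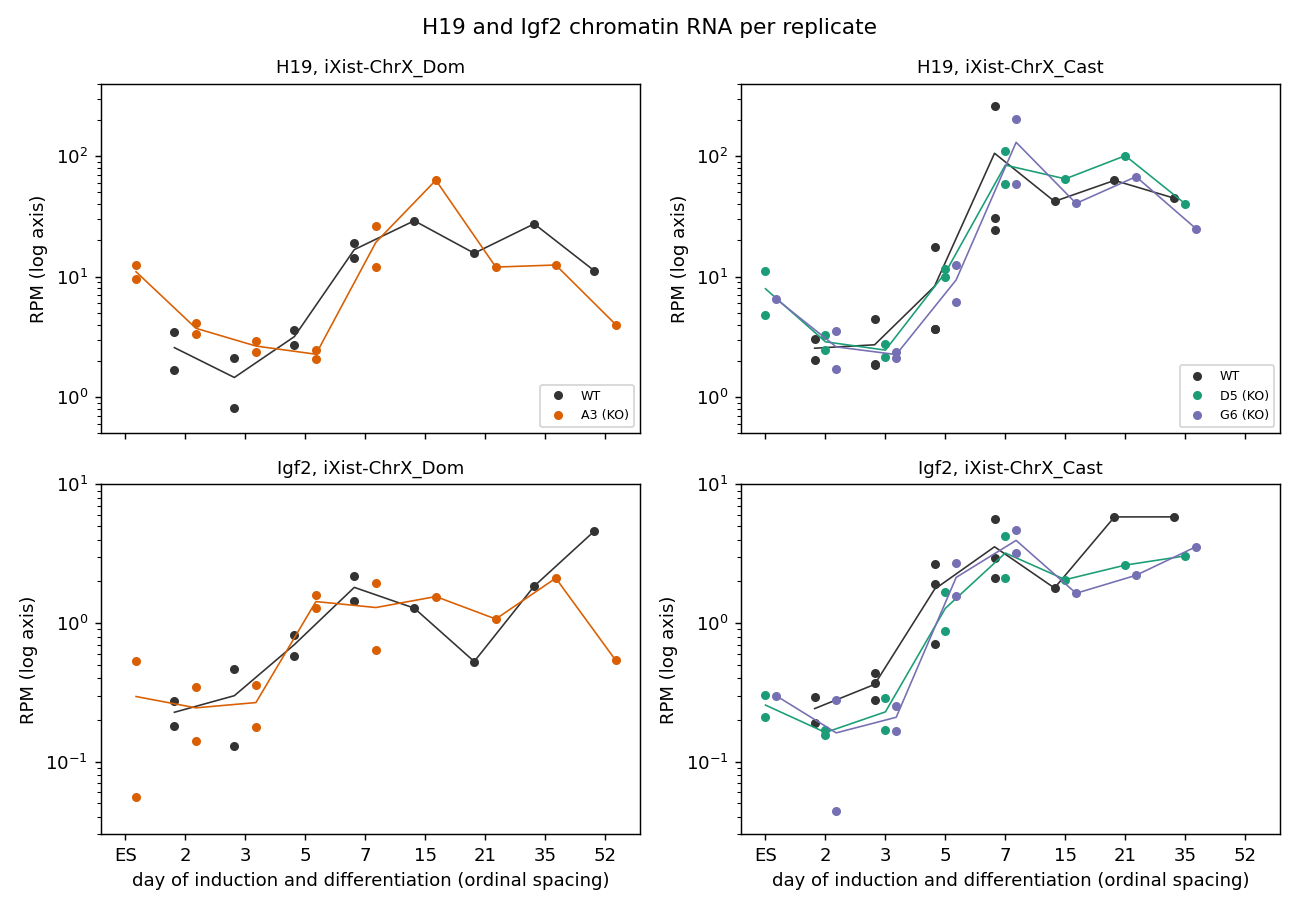
H19 (top) and Igf2 (bottom) chromatin RNA in RPM on a log axis for each replicate by day, with ES at the left, in iXist-ChrX_Dom (left) and iXist-ChrX_Cast (right). Points are replicates coloured by clone and lines join clone means. H19 lies at 0.820 to 4.13 RPM on days 2 to 5 of iXist-ChrX_Dom and at 12.1 to 26.5 RPM on day 7, and at 24.5 to 262 RPM on day 7 of iXist-ChrX_Cast.

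The Cast share of H19 moved with time as well. In iXist-ChrX_Cast it ran from 0.231 to 0.682 with a median of 0.427 in 27 early replicates and from 0.524 to 0.621 with a median of 0.560 in 9 late ones, a difference of 0.148 (SE 0.037, interval 0.072 to 0.22, limma adjusted p = 0.0028) against a background of 27.1% of genes called. Early and late replicates overlapped in range. Against day 7 alone, where replicates held 174 to 3551 allele-assigned fragments and shares of 0.458 to 0.506, the 9 late replicates did not overlap and the difference was 0.083, a split also chosen after the values were seen and given with no test. Within WT the value was 0.175 (adjusted p = 0.183) and within the KO clones 0.133 (adjusted p = 0.023), and with a minimum of 30 fragments the gene was not tested. In iXist-ChrX_Dom the difference was 0.081 (SE 0.047, interval -0.015 to 0.18, limma adjusted p = 0.249) against a background of 17.8%, and it was 0.152 within WT and 0.010 within A3. The change was not shown to differ between lines (difference 0.044, interval -0.077 to 0.16). At day 7 against days 2, 3 and 5 the share differed by 0.045 in iXist-ChrX_Dom (limma adjusted p = 0.786, background 2.83%) and by 0.090 in iXist-ChrX_Cast (limma adjusted p = 0.208, background 12.4%).

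Kcnq1ot1 was higher late than early in both lines. The log2 change was 0.40 (SE 0.10, edgeR adjusted p = 0.0014) in iXist-ChrX_Dom. In iXist-ChrX_Cast it was 0.39 (SE 0.10, edgeR adjusted p = 0.00054). These values are relative to the bulk of genes, for scaling by library totals shifted the median of all genes to -0.28 and -0.33 and left Kcnq1ot1 at 0.13 (adjusted p = 0.236) and 0.09 (adjusted p = 0.361). Its RPM ranges overlapped, 1134 to 1946 early and 1028 to 1802 late in iXist-ChrX_Dom. Its Cast share changed by 0.0030 (interval -0.0066 to 0.013) and 0.0020 (interval -0.0071 to 0.011).

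Kcnq1 was higher at day 7 than before. In iXist-ChrX_Dom it lay at 12.7 to 25.3 RPM against 5.30 to 18.9 RPM, a log2 difference of 0.64 (SE 0.23). In iXist-ChrX_Cast it lay at 18.4 to 56.7 RPM against 7.16 to 42.1 RPM, a log2 difference of 0.75 (SE 0.27). The groups overlapped in both lines. Medians on days 2, 3, 5 and 7 were 11.6, 11.9, 21.7 and 25.1 RPM in iXist-ChrX_Cast, already higher by day 5. In iXist-ChrX_Dom they were 13.3, 11.9, 15.0 and 19.5 RPM. In iXist-ChrX_Dom the day 7 difference was 0.47, 0.57 and 0.68 without the first day 7 replicate of A3 or either of WT. In iXist-ChrX_Cast it was 0.70 and 0.60 without the first day 7 replicate of G6 or of WT. Between early and late days Kcnq1 did not pass, at 0.20 (SE 0.23) and -0.18 (SE 0.31), but without day 15 the iXist-ChrX_Cast value was -0.99 (edgeR adjusted p = 0.011).

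Cdkn1c and Phlda2 moved within small numbers of fragments. In iXist-ChrX_Cast Phlda2 was higher at day 7 than before, at 0.193 to 1.09 RPM against 0 to 0.473 RPM (log2 difference 1.40, SE 0.36). It was lower late than early, at 0 to 0.345 RPM against 0 to 1.09 RPM (-1.40, SE 0.57, edgeR adjusted p = 0.030). The late fall was lost without day 21 or day 35 (-1.13 and -0.98, adjusted p = 0.131 and 0.183), and these fitted values depend on counts of 0. Cdkn1c at day 7 of iXist-ChrX_Cast lay at 0.193 to 1.64 RPM against 0.132 to 1.59 RPM (0.85, SE 0.33). The difference was 0.55 without the first day 7 replicate of G6 and 0.60 without the second of WT. In iXist-ChrX_Dom Cdkn1c passed between early and late days without day 52 alone (0.92, adjusted p = 0.049, against 0.56 with it).

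**Figure D5:**
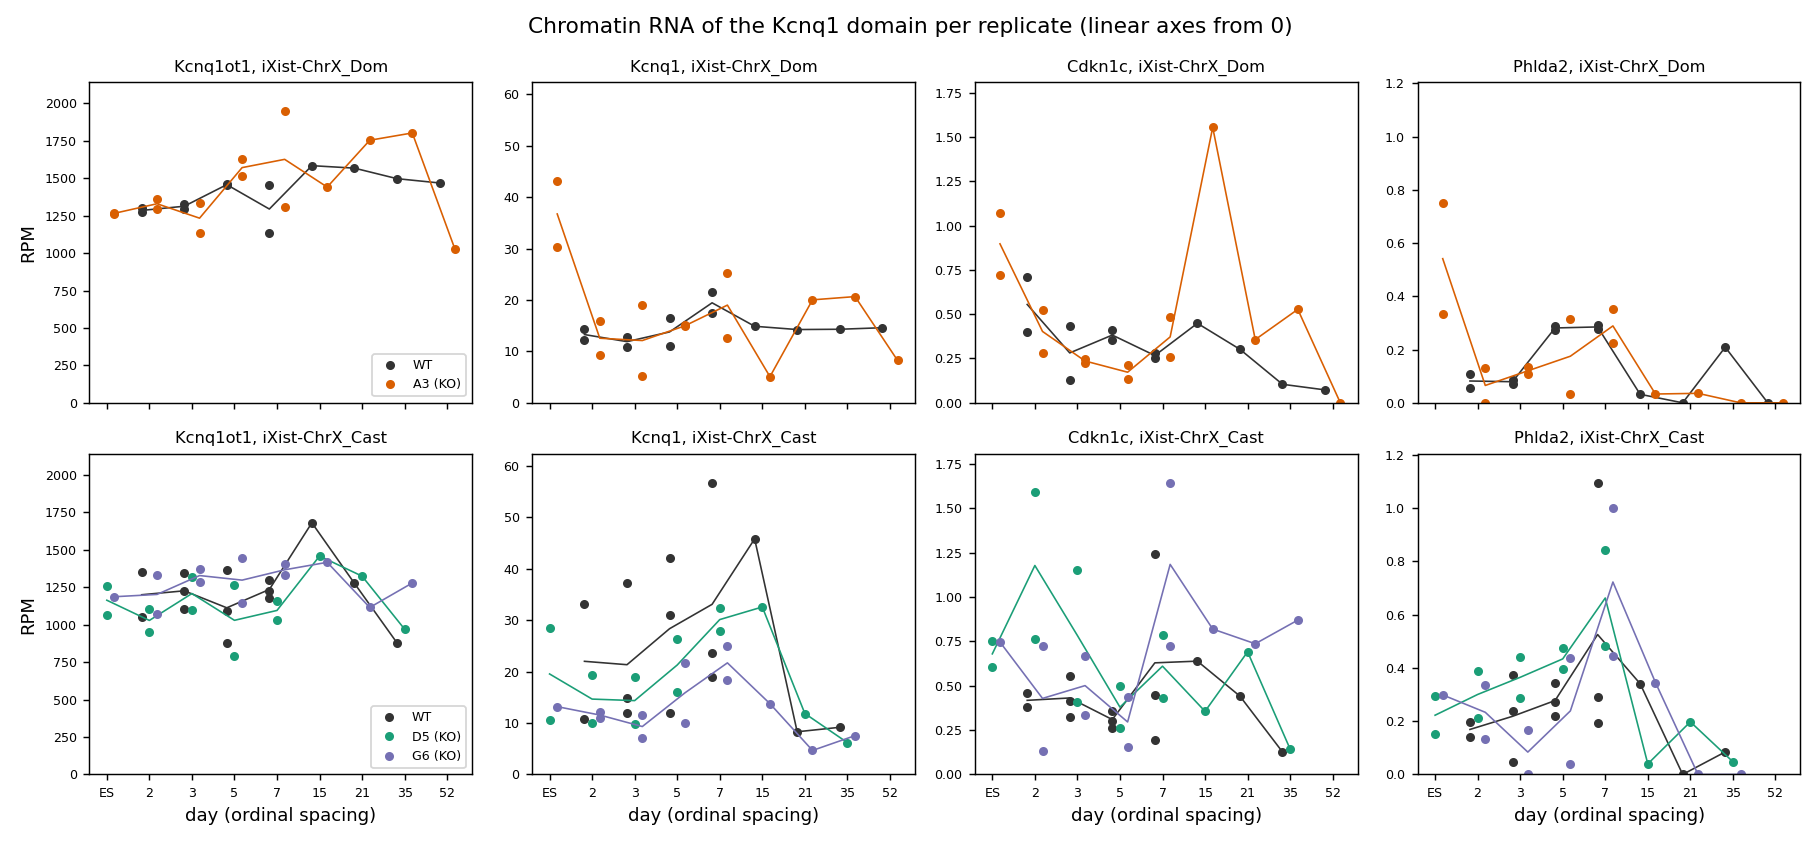
Chromatin RNA in RPM (linear axes from 0) of Kcnq1ot1, Kcnq1, Cdkn1c and Phlda2 for each replicate by day, with ES at the left, in iXist-ChrX_Dom (top) and iXist-ChrX_Cast (bottom). Points are replicates coloured by clone and lines join clone means. Kcnq1ot1 stays between 791 and 1946 RPM while Cdkn1c and Phlda2 stay under 1.65 RPM.

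The make-up of the cultures changed over the same days. The summed level of 8 fibroblast markers, the cell type of the feeder layer removed by pre-plating, was 7.85 to 145 RPM in early and 244 to 16145 RPM in late replicates, led by Col3a1, with a late Cast share of 0.535 in iXist-ChrX_Dom and 0.516 in iXist-ChrX_Cast, and 0 of the 8 was at 0 throughout. The 7 mESC markers fell from 89.1 to 851 RPM early to 3.68 to 190 RPM late, and the 7 NPC markers lay at 159 to 313 RPM early and 193 to 1005 RPM late, with Sox1 at 0 in all of them. The 4 neuron markers lay at 58.4 to 226 RPM early and 76.2 to 1153 RPM late, mostly Map2 (median 128 RPM early, 193 late). Single markers differed in course. By early and late medians, Dcx rose (1.28 to 2.75 RPM) while Tubb3 (3.82 to 3.10) and Elavl3 (6.73 to 1.50) fell. Of the NPC markers Vim (25.6 to 227), Nes (49.2 to 95.8) and Fabp7 (0.132 to 1.60) rose, while Slc1a3 (132 to 94.6) and Pax6 (1.04 to 0.868) fell. Thy1 alone of the fibroblast markers fell (1.25 to 0.320). The 7 mesoderm and endoderm markers lay at 6.53 to 275 RPM early and 17.7 to 219 RPM late. Between days 2, 3 and 5 and day 7 the lists differed in course. The fibroblast markers lay at 29.8 to 64.4 RPM on day 7 against 7.85 to 29.7 RPM before it in iXist-ChrX_Dom, and at 41.4 to 145 RPM against 9.13 to 77.2 RPM in iXist-ChrX_Cast. The neuron markers were lower on day 7, at 58.4 to 113 RPM against 143 to 218 RPM and at 68.5 to 110.2 RPM against 88.9 to 226 RPM. The ranges of both lists overlapped in iXist-ChrX_Cast and not in iXist-ChrX_Dom. The NPC, mESC and mesoderm and endoderm lists overlapped between those days in both lines. The part of any of these cell types in the changes of level or of Cast share was not tested.

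Domain neighbours and regulators moved with time in a mixed way. Of the H19-Igf2 neighbours tested, 3 rose and 1 fell of 7 in iXist-ChrX_Dom and 4 rose and 1 fell of 7 in iXist-ChrX_Cast between early and late days, with medians of 0.63 and 0.64 on the log2 scale against 0.01 and -0.02 over all genes. Of the Kcnq1 neighbours 5 rose and 3 fell of 13, and 5 rose and 5 fell of 13. Of the 17 imprint maintenance genes 3 rose and 10 fell in iXist-ChrX_Dom and 4 rose and 7 fell in iXist-ChrX_Cast, with medians of -0.35 and -0.18. Of the 17 partners in growth factor signalling and the cell cycle 7 rose and 2 fell, and 6 rose and 5 fell. These counts stand beside the 63.9% and 67.5% of all genes that changed.

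Finally, the WT cultures of the 2 lines were compared at early days, where 26.3% of genes were called in total RNA and 17.8% in Cast share. The lines share no stated schedule, so line and culture cannot be told apart. Igf2 and Kcnq1 were lower in iXist-ChrX_Dom than in iXist-ChrX_Cast. Kcnq1 ran from 10.9 to 21.5 RPM with a median of 13.6 in iXist-ChrX_Dom and from 10.8 to 56.7 RPM with a median of 23.6 in iXist-ChrX_Cast, a log2 difference of -0.95 (SE 0.29, edgeR adjusted p = 0.020) that became -0.81 (adjusted p = 0.054) without the first day 2 replicate of iXist-ChrX_Cast. Igf2 differed by -0.92 (SE 0.31, edgeR adjusted p = 0.035) and lost the threshold without replicate 2 or 3 of day 5 or replicate 2 of day 7 of iXist-ChrX_Cast, or the second day 3, either day 5 or the second day 7 replicate of iXist-ChrX_Dom (-0.75 to -0.89, adjusted p from 0.053 to 0.090). H19 differed by -1.43 (SE 0.54, edgeR adjusted p = 0.057) and passed with DESeq2 (-1.36, adjusted p = 0.030) and without any of 6 replicates, which were replicate 2 of day 2, replicates 1 and 3 of day 5 and of day 7 of iXist-ChrX_Cast and replicate 1 of day 2 of iXist-ChrX_Dom (-1.50 to -1.68, adjusted p from 0.030 to 0.049). The Cast shares of Kcnq1ot1, Kcnq1 and H19 differed between the lines by 0.0016 (interval -0.010 to 0.014), -0.0098 (interval -0.044 to 0.024) and 0.025 (interval -0.099 to 0.15), with 0 of 3 past the threshold by limma.

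The genes with the most similar course over the 65 replicates were named by Pearson's r of log2(CPM + 0.5), as a description, since replicates share lines, days and depth. For H19 they were Peg10 (0.860), an imprinted gene of chromosome 6, Rab33b (0.844) and Id3 (0.843). For Igf2 they were Prss23 (0.865), Wls (0.864) and Lrrc41 (0.864). Kcnq1ot1 came closest to Pard3 (0.724), 2410018L13Rik (0.708) and 2610206C17Rik (0.682), and Kcnq1 to Alas2 (0.815), 4931403G20Rik (0.811) and Gm19522 (0.797). For Cdkn1c the values were lower, with Timm8b (0.579), Amer1 (0.554) and Amigo2 (0.541), and Phlda2 had too few fragments to be ranked.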

How the data were processed

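Chromatin RNA of 72 libraries (65 replicates) was analysed from the deposited count tables. Per the study's methods, the authors removed reads of ribosomal RNA with Bowtie2 (2.3.2), aligned the rest with STAR (2.4.2a) to an mm10 genome masked at strain-specific bases, kept unique alignments, split them by allele with SNPsplit (0.2.0) and counted fragments per whole transcript and by strand with featureCounts (1.5.2), which gave the deposited counts for all, Cast and Dom fragments. The versions come from the submitters' processing notes. The allelic ratio tables, which hold X-linked genes, were not used. R1 and R2 libraries of one replicate were summed, though the labels do not say how they differ. Their levels were not always alike. H19 in the R1 and R2 libraries of G6 was 3.67 and 21.6 RPM at day 5, but 24.8 and 25.2 RPM at day 35.

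Total counts were tested with edgeR (4.0.16, quasi-likelihood, TMM, filterByExpr) in R (4.3.3). Cast shares of autosomal genes with at least 10 allele-assigned fragments in over 80% of replicates were tested with limma (3.58.1, trend), both adjusted by Benjamini-Hochberg at 0.05 over all genes. KO against WT had day as a factor, and the comparisons of periods had clone. RPM is fragments per 1000000 of the replicate's total. Intervals of shares are exact (Clopper-Pearson, 95%, scipy 1.17.1), with a floor of 3 fragments. Tables were handled in Python (3.11.15) with pandas (2.3.3). The fits of the early KO against WT comparisons were run on simulated data first. Those data had a fixed small spread and changes planted in better covered genes only, so they do not show how well changes in the members would be found. Alternatives were DESeq2 (1.42.0), library totals, no filter, edgeR on allelic counts, a minimum of 30 fragments, R1 and R2 kept apart, single clones or genotypes, single omissions and the replicate block. The day 7 comparison, the late days against day 7 and the crossed block were chosen after seeing the data.

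The members and lists were chosen with earlier results of these data known. Beside the members, a listed gene was named where it passed in a KO against WT comparison (at most 3 per list) or was monoallelic, and for each member with at least 10 fragments in over 50% of replicates the 3 genes of highest r were named. Replicate numbers did not pair the samples in a uniform way, by the check described under the effects of processing, so no block was used in the main fits.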

Additional observations from a re-analysis of the deposited data

How the results depend on the processing

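Calls on the members rested on few replicates, 1 per clone and day after day 7, and on few fragments of Igf2, Cdkn1c and Phlda2, for which no test of the Cast share could be made. Over single omissions 197 of 210 counts of members called held within 1.5 times, and over the other alternatives 73 of 87. No value that passed the threshold under either setting changed sign. The cause of a change was not tested except where it is the smaller number of samples.

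The counts of members called changed as follows, with the count reported first. They are to be read against the shares of all genes called. In total RNA these were 63.9% and 67.5% in iXist-ChrX_Dom and iXist-ChrX_Cast between early and late days, 26.3% between the lines, and 39.4% and 53.5% at day 7. In Cast share they were 27.1% between early and late days of iXist-ChrX_Cast, and 2.83% and 12.4% at day 7 in the same order of lines. Phlda2 was tested in total RNA within iXist-ChrX_Cast only. Between early and late days in total RNA it was 3 in iXist-ChrX_Dom, and 1 with library totals, 0 in KO clones alone, 0 against day 7 and 2 to 3 over single omissions. In iXist-ChrX_Cast it was 3, and 1 with library totals, 0 in WT alone, 1 in KO clones alone, 1 against day 7 and 1 to 4 over single omissions. Between the lines it was 2, and 1 with library totals and 1 to 3 over single omissions. At day 7 it was 3 in iXist-ChrX_Dom, and 1 in KO clones alone and 1 to 3 over single omissions, and 5 in iXist-ChrX_Cast, and 1 in WT alone and 3 to 5. The day 7 split was chosen after the values were seen, so its counts of members, here and in Cast share, are a description and no test. In Cast share it was 1 between early and late days of iXist-ChrX_Cast, and 0 at a minimum of 30 fragments and 0 in WT alone, and at day 7 it was 0, and 1 with edgeR on allelic counts.

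Replicate numbers were shared between clones, and same-numbered replicates correlated at -0.24 to -0.61 in iXist-ChrX_Dom and at 0.51 and 0.55 on day 2 but -0.21 to 0.076 on days 3 to 7 of iXist-ChrX_Cast. With the replicate block, 1 member in place of 0 passed in early iXist-ChrX_Cast, Kcnq1 at -0.87 (edgeR adjusted p = 0.0051), and 249 genes in place of 59. With the numbers of A3 crossed, 540 genes in place of 124 passed in early iXist-ChrX_Dom and 68 in place of 22 in Cast share. Under the block Kcnq1 in early iXist-ChrX_Dom turned to -0.0043, and crossed to -0.0073, H19 in early iXist-ChrX_Cast to -0.16 and its share difference to -0.0073. No other call on a member changed under the block.

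Values that did not pass also changed sign. With library totals, Kcnq1ot1 became -0.055 in late iXist-ChrX_Dom KO against WT, Kcnq1 -0.064 between early and late days of iXist-ChrX_Dom, and Cdkn1c -0.16 between those of iXist-ChrX_Cast and -0.028 at day 7 of iXist-ChrX_Dom. With R1 and R2 apart, Kcnq1ot1 became -0.011 in early iXist-ChrX_Cast, and the late share difference of Kcnq1 0.00085. With D5 alone against WT, H19 became -0.044, Kcnq1ot1 -0.19 and the Kcnq1 share difference 0.00023 early, and Kcnq1ot1 -0.0013 and Cdkn1c -0.056 late. With G6 alone, Igf2 became 0.015 early and H19 -0.096 late. In WT alone, Cdkn1c became -0.42 and the Kcnq1 share change -0.0028 between early and late days of iXist-ChrX_Dom, and at day 7 Kcnq1ot1 became -0.0047, Cdkn1c -0.53 and the Kcnq1 share change 0.0047. In KO clones alone the Kcnq1ot1 share change in iXist-ChrX_Cast became -0.0011. Against day 7 in place of all early days, Kcnq1 became -0.24 in iXist-ChrX_Dom, H19 -0.74 and Cdkn1c -0.37 in iXist-ChrX_Cast, and the Kcnq1ot1 share change there -0.0034.

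Over single omissions, KO against WT in total RNA spanned 0 for Kcnq1 in early iXist-ChrX_Dom (-0.14 to 0.17), for Igf2 (-0.63 to 0.54), Kcnq1ot1 (-0.00011 to 0.17) and Kcnq1 (-0.46 to 0.23) in late iXist-ChrX_Dom, for H19 (-0.096 to 0.48) and Kcnq1ot1 (-0.032 to 0.051) in early and Kcnq1ot1 (-0.14 to 0.22) in late iXist-ChrX_Cast. In Cast share it did so for Kcnq1ot1 (-0.00040 to 0.0026) and Kcnq1 (-0.00031 to 0.011) in early and Kcnq1ot1 (-0.0048 to 0.0066) in late iXist-ChrX_Dom, and for H19 (-0.0017 to 0.057) in early and Kcnq1 (-0.036 to 0.015) in late iXist-ChrX_Cast. Between early and late days it did so for Cdkn1c in iXist-ChrX_Dom (-0.31 to 0.92), Kcnq1 (-0.99 to 0.10) and Cdkn1c (-0.032 to 0.48) in iXist-ChrX_Cast and the shares of Kcnq1 in iXist-ChrX_Dom (-0.0084 to 0.030) and Kcnq1ot1 in iXist-ChrX_Cast (-0.0053 to 0.0077). Between the lines it did so for the H19 share (-0.0059 to 0.063), and at day 7 of iXist-ChrX_Dom for Kcnq1ot1 (-0.012 to 0.28), Cdkn1c (-0.27 to 0.23) and the Kcnq1 share (-0.012 to 0.0018).

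The numbers of all genes called moved more. KO against WT in total RNA gave 124 genes in early iXist-ChrX_Dom, and 550 with DESeq2 and 9 to 251 over single omissions, and 59 in early iXist-ChrX_Cast, and 244 with DESeq2, 114 with library totals, 37 with no filter, 1285 with D5 alone, 273 with G6 alone and 22 to 69 over single omissions. In Cast share it gave 22 genes in early iXist-ChrX_Dom, and 147 with edgeR on allelic counts, 47 with the replicate block and 13 to 27 over single omissions, and 2 in early iXist-ChrX_Cast, and 57 with edgeR, 1 with R1 and R2 apart, 266 with D5 alone, 18 with G6 alone, 22 with the block and 2 to 4 over single omissions. Early against late days gave 9901 genes in iXist-ChrX_Dom, and 6528 in KO clones alone and 1769 against day 7, and 10544 in iXist-ChrX_Cast, and 5237 in WT alone. In Cast share these gave 2116, and 349 in WT alone, 356 in KO alone, 19 against day 7 and 1293 to 2459 over single omissions, and 3220, and 569 in WT alone and 1146 against day 7. Day 7 gave 6083 in iXist-ChrX_Dom, and 2168 in WT alone and 19 in KO alone, and 8286 in iXist-ChrX_Cast, and 1383 in WT and 4964 in KO alone, and in Cast share 346, and 579 with edgeR, 3 in WT alone, 0 in KO alone and 58 to 212 over single omissions, and 1504, and 36 in WT and 317 in KO alone. Library totals moved the share of called genes that were higher from 49.9% to 30.8% and from 49.3% to 30.01% between early and late days, from 50.8% to 38.6% and from 46.4% to 38.8% at day 7, from 48.6% to 68.7% between the lines and from 46.8% to 31.8% in early iXist-ChrX_Dom KO against WT.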
